A study of Homo sapiens with 16 samples.

Results

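The MYC, MAX and MXD network was followed as 10 genes, MYC, MAX, MXD1, MXD3, MXD4, MXI1, MNT, MGA, MLX and MLXIP, which were taken by symbol from the 62714 genes listed for every library. Their transcripts were measured by RNA-seq in 4 human B-cell lymphoma lines, which are established lines, with 16 libraries in all. Each line was infected with a lentiviral CRISPR vector carrying Cas9 and pooled guides against CREBBP, a histone acetyltransferase gene often mutated in follicular lymphoma, or against the AAVS site as a control. The targeted cells were used as pools rather than clones, so that a CREBBP pool may hold cells with different edits. Each pool was cultured for 4 h without IL4 (baseline) or with 10 ng/ml of IL4, a cytokine that signals through STAT6.

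There are thus 4 groups of 4 libraries, called AAVS baseline, CREBBP baseline, AAVS IL4 and CREBBP IL4, and 1 library per line in each. All of them carry the vector and Cas9, the controls included. SU-DHL4 is line 1 and DOHH2 line 4. The titles name line 2 OCI-LY7 and line 3 SU-DHL10, whereas the cell line entries name them the other way round, so these are called line 2 and line 3. Errors and p-values of the comparisons between pools and with IL4 reflect the spread between lines, since no line has a second culture per condition. Where the lines themselves are compared, the 4 libraries of a line serve as its replicates. The p-values then reflect only the spread between those related libraries.

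MYC is a transcription factor that binds the E-box CACGTG as a dimer with MAX and raises genes for ribosome assembly, nucleotide synthesis and cell cycle entry. MXD1, MXD3, MXD4, MXI1 and MNT compete for MAX and for the same sites and recruit SIN3 corepressors, MGA joins MAX to a Polycomb complex, and MLX and MLXIP form a parallel arm that responds to glucose metabolites. In germinal centre B cells, from which these lymphomas derive, MYC is normally restricted to small subsets of cells, and translocations that deregulate it are frequent in aggressive lymphoma.

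The libraries held between 19649735 and 61981976 counts. CREBBP transcripts overlapped between pools, at 205.0 to 359.6 CPM (a gene's counts scaled so that every library has the same total) in AAVS baseline, 190.5 to 378.8 in AAVS IL4, 187.4 to 278.0 in CREBBP baseline and 69.9 to 244.6 in CREBBP IL4, although the methods describe loss of the protein by immunoblot. The 10 general B-cell markers summed to between 3028 and 5840 CPM in every library. All 8 germinal centre markers reached 1 CPM in at least 1 library of each group. The AAVS IL4 libraries stood apart. Their 12 naive and memory B-cell markers summed to 1185 to 6997 CPM against 49.6 to 317.6 in the other 12 libraries, and their 13 T-cell markers to 19.8 to 182.7 against 8.76 to 18.5. CD44 read 67.5 to 940.6 CPM and IGHM 138.1 to 1711 CPM there, whereas CD44 did not pass 0.472 CPM in the other 12 libraries and IGHM was at 0 in all 4 AAVS baseline libraries. The part that these transcripts have in any result with AAVS IL4 was not tested. In addition, 3 small RNA genes (RN7SL1, RN7SL2 and RN7SK) held 18.1% of the counts in the CREBBP IL4 library of line 2 and 4.41% to 13.3% elsewhere. CPM is the count over this total, whereas all fold changes were scaled with TMM factors, which are less affected by a few abundant genes.

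The E-box by which the network binds DNA is also present upstream of some of its own genes. RefSeq start sites (GRCh38.p14) were available for 9 of the 10 members, all but MYC. CACGTG, which reads the same on both strands, was found within 250 bases upstream of the RefSeq start of 3 of these 9, MXD4, MNT and MLX. It was found in 6.34% of all 35116 windows of that length and in 7.37% of the 22199 windows of protein-coding genes. The windows of MAX (chr14:65102284-65102533) and MXD1 (chr2:69914859-69915108) lie inside the genes as GENCODE annotates them. The bases before the GENCODE starts of MAX and MXD1 were thus not searched. The 3 stretches are shown 5′ to 3′ on the strand of the gene, with the E-box in capitals, as the members in which a network site lies next to the start. The E-box begins 238, 193 and 50 bases before the RefSeq start of MXD4, MNT and MLX, respectively, and bases in annotated exons were left out. The stretches lie at chr4:2262110-2262359 (minus strand), chr17:2401105-2401310 (minus strand) and chr17:42566850-42567071 (plus strand).
MXD4: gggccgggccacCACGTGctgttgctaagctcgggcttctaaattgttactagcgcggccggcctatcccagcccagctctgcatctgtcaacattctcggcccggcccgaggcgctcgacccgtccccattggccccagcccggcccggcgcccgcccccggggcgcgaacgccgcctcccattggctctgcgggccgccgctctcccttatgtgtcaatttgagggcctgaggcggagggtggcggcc
MNT: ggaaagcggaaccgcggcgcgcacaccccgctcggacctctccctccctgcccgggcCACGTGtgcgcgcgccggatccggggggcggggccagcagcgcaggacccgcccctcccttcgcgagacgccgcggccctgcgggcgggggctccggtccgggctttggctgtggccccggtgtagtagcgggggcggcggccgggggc
MLX: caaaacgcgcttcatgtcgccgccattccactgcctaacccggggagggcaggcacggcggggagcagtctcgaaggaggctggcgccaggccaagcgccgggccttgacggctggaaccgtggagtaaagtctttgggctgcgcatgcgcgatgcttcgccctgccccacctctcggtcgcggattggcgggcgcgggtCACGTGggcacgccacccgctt
A palindrome of the kind bound by STAT6, TTC and GAA with any 4 bases between them, which also reads the same on both strands, was in 0 of the 9 member windows and in 5.38% of all windows. These are letter matches only.

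All 10 members passed the filter on low counts in every comparison. To compare genes with each other, CPM was divided by the length of the merged exons in kilobases. On this scale MYC, which lies at chr8:127735434-127742951 on GRCh38 (ENSG00000136997), ranked first in 16 of 16 libraries, with a mean of 39.3 ± 17.2 CPM per kb (SD, n = 16). MXD4 followed at 11.2 ± 6.29, MAX, the obligate partner of MYC, at 10.5 ± 2.89, and MLX at 10.4 ± 2.07 CPM per kb. MGA (6.66 ± 1.97), MLXIP (6.54 ± 1.53) and MXI1 (5.90 ± 2.11) came next. MNT (3.71 ± 0.869), MXD3 (3.30) and MXD1 (3.02 ± 1.13) were lowest. After MYC, neighbours in this order differed by less than their SD, except MLX from MGA and MXI1 from MNT.

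Of the close relatives outside the 10 genes, MYCN, the neuronal MYC gene, was at 0 in 15 of 16 libraries and MLXIPL, the relative of MLXIP in liver, did not pass 0.0490 CPM. MYCL read 0.348 to 3.94 CPM. MYC was thus the MYC family gene with by far the most transcripts in each of the 4 lines.

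**Figure D1:**
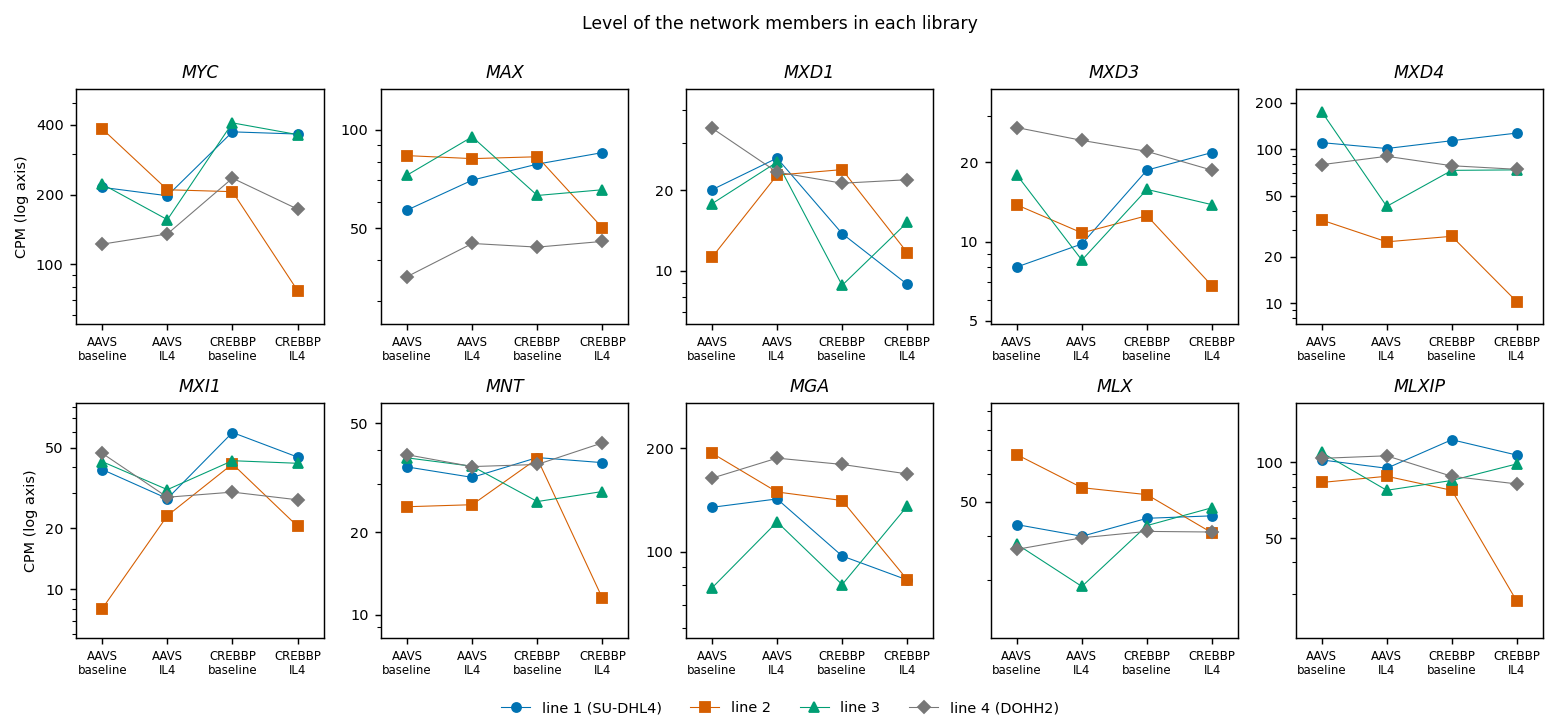
Level of each network member in the 16 libraries, in CPM on a log axis. Each point is 1 library, colour and symbol give the line, and thin lines join libraries of 1 line. In MYC, lines 1, 3 and 4 are higher in the CREBBP pools and line 2 is lower, and the CREBBP IL4 library of line 2 is the lowest of its line for 8 of the 10 genes.

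MYC differed between CREBBP and AAVS pools in opposite directions in different lines. In AAVS baseline, MYC read 214.9, 384.5, 221.7 and 122.0 CPM in lines 1 to 4. In CREBBP baseline it read 373.4, 205.8, 408.3 and 235.4 CPM. Lines 1, 3 and 4 were higher in the CREBBP pool and line 2 was lower, and the groups overlapped. With IL4, the AAVS pools read 197.6, 209.7, 155.7 and 135.1 CPM, and the CREBBP pools 365.3, 76.9, 363.3 and 173.0 CPM. The same 3 lines were again higher and line 2 was again lower. In bulk RNA, fewer cells with a transcript and less of it per cell cannot be told apart.

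After TMM scaling, the log2 difference of MYC at baseline was 0.82, -0.80, 1.09 and 1.02 in lines 1 to 4, and with IL4 it was 1.06, -0.78, 1.44 and 0.41. Over 4 lines the log2 fold change was 0.55 ± 0.30 (SE, 95% interval -0.12 to 1.22, adjusted p = 0.475) at baseline and 0.55 ± 0.39 (interval -0.36 to 1.45, adjusted p = 0.400) with IL4. Neither passed the threshold of an adjusted p of 0.05. Line 2 decided the baseline result. Without line 2, MYC was higher in the CREBBP pools, with a 95% interval of 0.54 to 1.47 on the log2 scale (SE 0.21, adjusted p = 0.0359), a 3-line comparison in which 2.68% of the 19206 genes tested passed. With IL4, the value without line 2 was 1.03 ± 0.30 (adjusted p = 0.0636). Line 2 was singled out after its opposite direction had been seen. The interval and p-values without it thus describe the remaining lines and are not a test. The 2 comparisons have no library in common, although the libraries came from the same pools.

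At baseline, 0 of the 10 members passed edgeR's test between CREBBP and AAVS pools, and 0% of the 18936 genes tested passed. At an unadjusted p under 0.05 there were 0 members against 2422 genes, and DESeq2 called 0 against 511. With IL4, 0 of 10 passed, against 4.39% of 19581 genes. Again 0 members were at an unadjusted p under 0.05, against 5018 genes, and DESeq2 called 0 against 4154. MAX, at chr14:65006174-65102695 (ENSG00000125952), differed by 0.24 ± 0.18 at baseline (interval -0.17 to 0.64) and by 0.04 ± 0.23 with IL4 (interval -0.48 to 0.57).

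Of the repressors that compete for MAX, MXD1 went opposite to MYC in every line at baseline. It read 20.1, 11.2, 17.8 and 34.2 CPM in AAVS baseline and 13.8, 23.9, 8.83 and 21.3 CPM in CREBBP baseline. The scaled differences were -0.52, 1.19, -0.80 and -0.62 in lines 1 to 4, so that line 2 alone was higher in the CREBBP pool. The fold change over 4 lines was -0.21 ± 0.32 (adjusted p = 0.810). Without line 2, left out after its direction had been seen, it was -0.62 ± 0.22 (unadjusted p = 0.0157, adjusted p = 0.148). With IL4, MXD1 read 26.4, 22.8, 25.5 and 23.4 CPM in the AAVS pools and 8.90, 11.7, 15.2 and 21.9 CPM in the CREBBP pools. Line 4 differed little, at 23.4 CPM against 21.9 CPM. With TMM factors over all 16 libraries, its log2 CPM minus the mean of the line was -0.13 in AAVS IL4 and -0.10 in CREBBP IL4. The fold change of MXD1 over 4 lines was -0.56 ± 0.30 (adjusted p = 0.283), in a comparison that uses the AAVS IL4 libraries.

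MXI1 is another MAX-binding repressor. It read 39.1, 8.04, 42.7 and 47.0 CPM in AAVS baseline and 59.5, 41.6, 43.2 and 30.2 CPM in CREBBP baseline, a log2 fold change of 0.65 ± 0.40 (adjusted p = 0.519). Line 2 was low in AAVS baseline, differing from its CREBBP pool by 2.47 on the log2 scale, and without it the value was 0.13 ± 0.24. With IL4, MXI1 was 0.50 ± 0.24 (adjusted p = 0.241), with a positive difference in 4 of 4 lines. MXD3 was at 0.24 ± 0.27 at baseline, with differences of 1.24, -0.031, 0.026 and -0.23 in lines 1 to 4, and at 0.48 ± 0.36 with IL4, with differences of 1.32, -0.0051, 0.91 and -0.32. MXD4 and MNT had fold changes of -0.30 ± 0.23 and 0.11 ± 0.21 at baseline and of 0.17 ± 0.31 and 0.04 ± 0.25 with IL4. MGA was at -0.09 ± 0.20 and -0.13 ± 0.24, and MLXIP at -0.01 ± 0.19 and -0.09 ± 0.30. MLX was at 0.11 ± 0.19 and 0.42 ± 0.24, with a positive difference in 3 and 4 of the 4 lines. None of these 7 passed the test in either comparison.

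**Figure D2:**
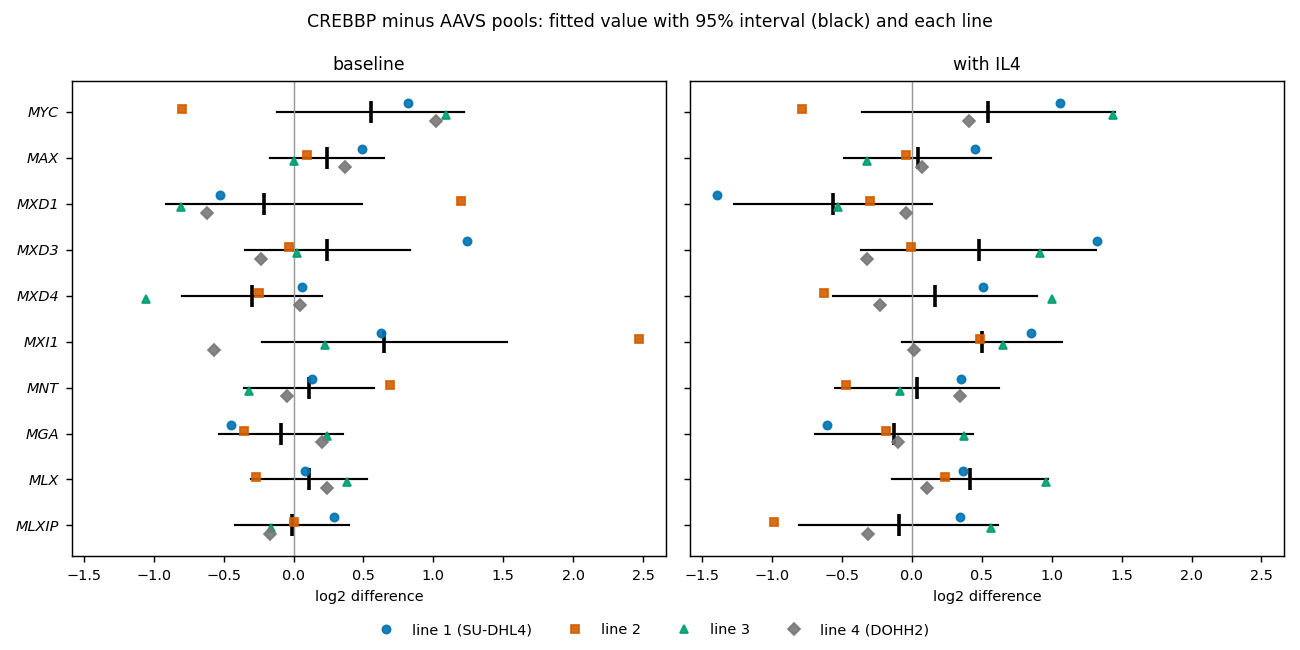
Log2 difference of CREBBP minus AAVS pools for the 10 members, at baseline (left) and with IL4 (right). Black ticks and bars are the fitted fold change over 4 lines with its 95% interval, and symbols are the single lines. Every interval includes 0, and line 2 lies opposite to the other lines for MYC in both panels and for MXD1 at baseline.

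Since MYC and its antagonists share MAX, the level of MYC per kb was also set against the summed level of MXD1, MXD3, MXD4 and MXI1 per kb in the same library, a ratio that does not depend on scaling. In AAVS baseline the ratio was 1.28, 5.68, 0.923 and 0.653 in lines 1 to 4. In CREBBP baseline it was 1.87, 1.93, 2.95 and 1.57. Lines 1, 3 and 4 thus had a higher ratio in the CREBBP pool, and line 2 had a lower one. With IL4, the AAVS pools had ratios of 1.26, 2.56, 1.48 and 0.828 and the CREBBP pools 1.86, 1.53, 2.58 and 1.24, with the same direction in each line. The range over lines was narrower in CREBBP baseline (1.57 to 2.95) than in AAVS baseline (0.653 to 5.68), and this was not tested.

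No member passed the test for a response to IL4. In AAVS pools, 0 of the 10 members passed, against 2.4% of the 20310 genes tested. At an unadjusted p under 0.05 there were 0 members against 3257 genes, and DESeq2 called 0 against 2062. The fold change of MYC was -0.40 ± 0.22 (interval -0.94 to 0.13, adjusted p = 0.406), with line 4 at 0.16 and lines 1 to 3 at -0.24, -0.79 and -0.74. MXD4 had the largest value, -0.64 ± 0.41 (adjusted p = 0.456), with line 3 at -2.27, where it read 175.4 CPM at baseline and 42.6 CPM with IL4. Line 3 is also the line with the most naive and memory B-cell marker transcripts with IL4, including CD44 at 940.6 CPM. MAX was at 0.19 ± 0.16, MXD1 at 0.28 ± 0.29 and MXD3 at -0.38 ± 0.29. The remaining members lay between -0.24 (MLX) and 0.07 (MGA).

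In CREBBP pools, 0 of 10 members passed, and 0% of the 18282 genes tested passed. DESeq2 called 0 members, against 1 of all genes. At an unadjusted p under 0.05 there were 2 members, MYC and MXI1, against 502 genes. MYC had a fold change of -0.47 ± 0.19 (interval -0.90 to -0.04, unadjusted p = 0.0358, adjusted p = 0.924), with differences of -0.01, -0.94, -0.45 and -0.48 in lines 1 to 4. MXI1 was at -0.35 ± 0.15 (unadjusted p = 0.0386, adjusted p = 0.924) and was also negative in 4 of 4 lines. Line 2 had the lowest value for MYC, MXD4 (-0.93), MNT (-1.21) and MLXIP (-0.98), and the IL4 library of this line is the one with 18.1% small RNA counts. Its MYC, MXD4, MNT and MLXIP levels were 76.9, 10.2, 11.5 and 28.0 CPM, each the lowest of all 16 libraries. The part of the small RNA share in these values was not tested.

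The IL4 response of the CREBBP pools was compared with that of the AAVS pools in 1 fit of 16 libraries. Here 0 of 10 members passed, against 0.638% of 21932 genes. At an unadjusted p under 0.05 there were 0 members against 2927 genes, and DESeq2 called 0 against 1099. For MYC the difference of the responses was 0.04 ± 0.30 (interval -0.63 to 0.71, adjusted p = 0.972). For MLX, the member with the smallest p, it was 0.35 ± 0.24 (adjusted p = 0.564), and for MXD4 0.47 ± 0.49 (adjusted p = 0.712). The intervals leave room for differences of up to about 1.54 in MXD4 on the log2 scale.

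**Figure D3:**
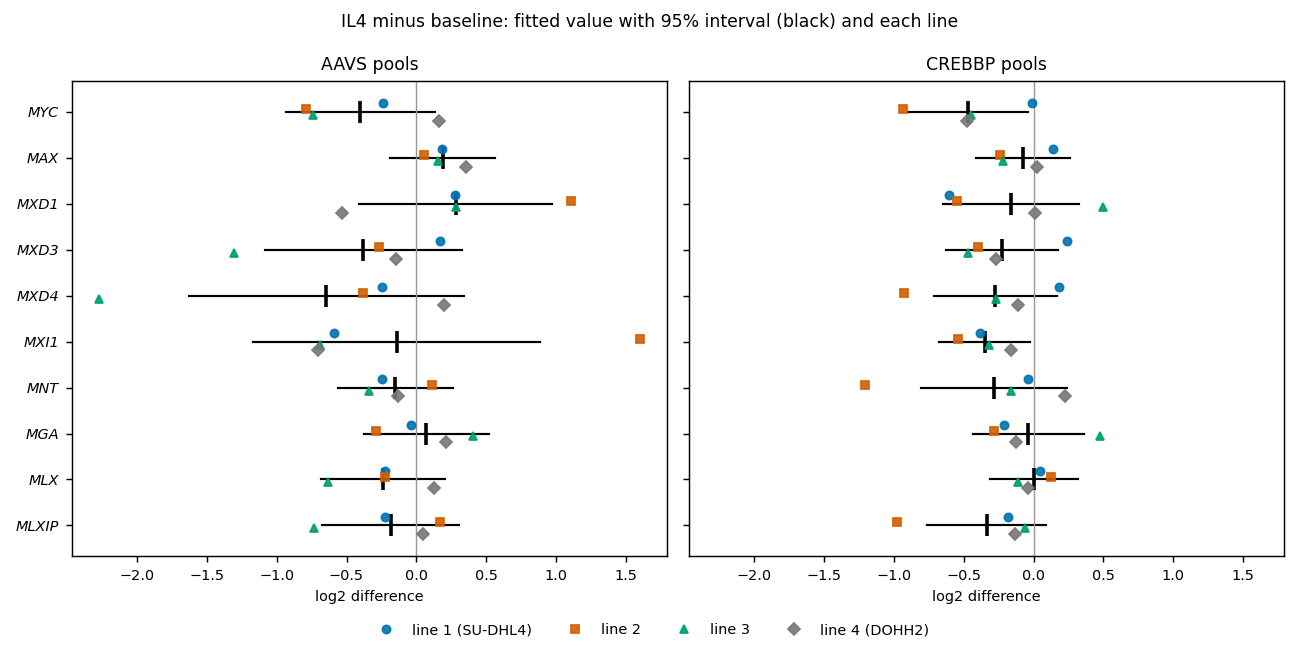
Log2 difference of IL4 minus baseline for the 10 members, in AAVS pools (left) and CREBBP pools (right). Black ticks and bars are the fitted fold change with its 95% interval, and symbols are the single lines. In the CREBBP pools the intervals of MYC and MXI1 lie below 0, although neither passes after adjustment, and line 3 lies far left for MXD4 in the AAVS pools.

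The lines were compared next, with the 4 related libraries of each line as its replicates. In a test of the 4 lines over all 16 libraries, with the condition as a covariate, 2 of 10 members passed, against 40% of the 21932 genes tested. At an unadjusted p under 0.05 there were 5 members, against 11051 of these genes. DESeq2 called 5 members, MAX, MXD4, MYC, MLX and MLXIP, against 10887 genes. Whether the members differ from all genes in these shares was not tested.

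MAX (adjusted p = 0.00113) was lowest in line 4. It read 35.5, 44.9, 43.7 and 45.5 CPM there without and with IL4 in the AAVS pool and without and with IL4 in the CREBBP pool, and 50.1 to 95.3 CPM in the 12 libraries of the other lines, with no overlap. The means were 74.5 ± 16.3, 74.1 ± 14.7 and 72.7 ± 12.2 CPM (SD, n = 4) in lines 2, 3 and 1, which differed by less than their SD, and 42.4 ± 4.66 CPM in line 4. Without line 4 the adjusted p of MAX was 0.961.

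MXD4, at chr4:2247432-2262109 (ENSG00000123933), was lowest in line 2 (adjusted p = 0.000643). It read 34.7, 25.1, 27.2 and 10.2 CPM there in the same order of conditions and 42.6 to 175.4 CPM in the other 12 libraries, again with no overlap. The means were 113.1 ± 10.9, 91.1 ± 58.0 and 80.4 ± 6.79 CPM in lines 1, 3 and 4, and 24.3 ± 10.3 CPM in line 2. Leaving out the CREBBP IL4 library of line 2 gave an adjusted p of 0.00434, leaving out the AAVS IL4 group 0.000295, and leaving out line 2 altogether 0.275.

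No line lay apart from all others for the other 8 members. How many of all genes had a line apart in this way was not counted. MYC had means of 287.8 ± 94.5, 287.3 ± 118.4, 219.2 ± 126.3 and 166.4 ± 50.8 CPM in lines 1, 3, 2 and 4 (adjusted p = 0.0934), so that no neighbours in this order differed beyond their spread. Without line 2, however, the test of the lines gave an adjusted p of 0.00965 for MYC. MXD1 (adjusted p = 0.584) and MXD3 (0.118) had their highest mean in line 4, at 25.2 ± 6.08 and 23.0 ± 3.57 CPM. MGA was also highest in line 4, at 174.6 ± 10.6 CPM against 104.1 ± 29.1 in line 3 (adjusted p = 0.215). MLX was highest in line 2, at 54.0 ± 11.1 CPM, and MLXIP lowest there, at 69.1 ± 27.7 CPM (adjusted p = 0.0990 and 0.0657). Without the AAVS IL4 group, MLXIP passed the test of the lines (adjusted p = 0.0126). Without the CREBBP IL4 library of line 2, however, its adjusted p was 0.272.

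The members were then followed together across the libraries, after the mean of each line was subtracted from log2 CPM. These 16 points share pools and lines and are not independent, so the correlations are a description with no p. MYC and MXD1 ran opposite, with a Pearson r of -0.73 and a Spearman rho of -0.76, and r was -0.73 without AAVS IL4 and -0.82 without the CREBBP IL4 library of line 2. MYC and MLX ran together (r = 0.77, rho = 0.81), with r = 0.62 and 0.90 in the same smaller sets. For MYC and MAX, r was 0.38. MXD4 and MLXIP had r = 0.79 (0.72 without AAVS IL4). MYC and MXI1 had r = 0.00 over 16 libraries and -0.49 over the 12 without AAVS IL4. MXD3 and MXD4 ran with MYC rather than against it. Their r with MYC was 0.66 and 0.53 over 16 libraries and 0.39 and 0.17 over the 12. How many of all genes correlate with MYC as strongly as MXD1 or MLX was not counted.

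Among 21932 genes, the 5 most like MYC by Pearson r over the 16 line-centred libraries were CAD (0.974), SLC35A4 (0.968), LIPE (0.963), DCAKD (0.959) and CLPTM1L (0.957). Over the 12 libraries without AAVS IL4, r was 0.967, 0.952, 0.972, 0.960 and 0.954 in the same order. CAD encodes the enzyme that starts pyrimidine synthesis. It read 187.0, 404.3, 139.0 and 90.4 CPM in AAVS baseline and 316.9, 192.8, 251.2 and 210.3 CPM in CREBBP baseline in lines 1 to 4. Line 2 thus went down and the others up, which follows from choosing CAD by its match to MYC. LIPE encodes hormone-sensitive lipase.

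**Figure D4:**
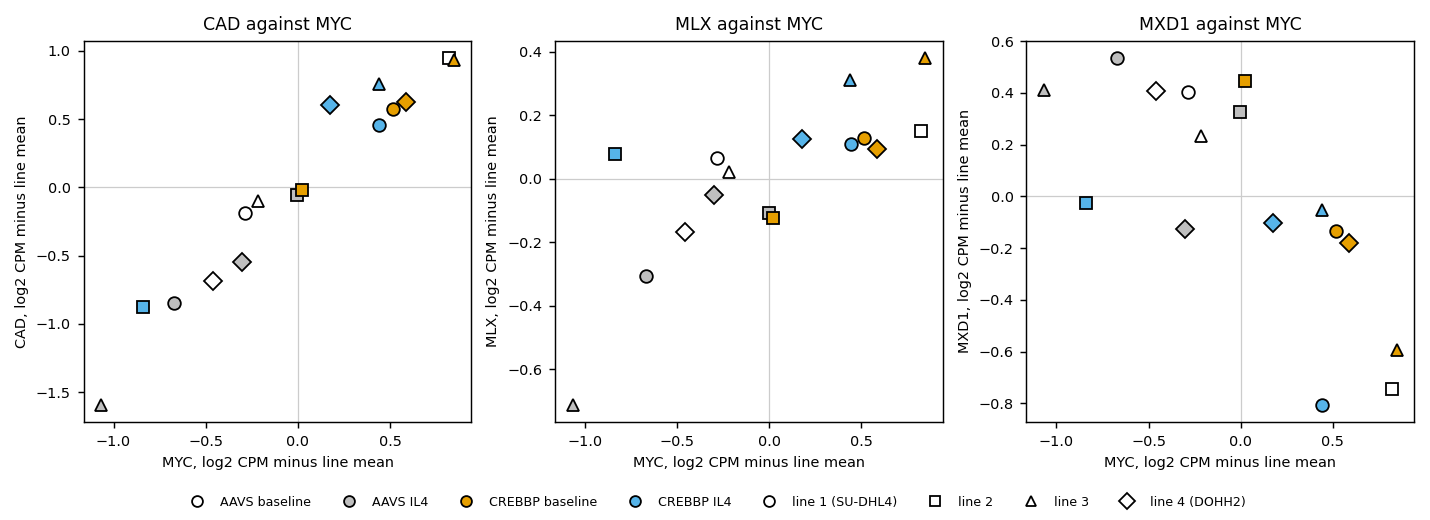
CAD, MLX and MXD1 against MYC in the 16 libraries, each as log2 CPM minus the mean of its line. Fill gives the group and symbol shape the line. CAD follows MYC over the whole range (r = 0.974), MLX rises with it apart from the CREBBP IL4 library of line 2, and MXD1 runs the other way (r = -0.73).

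Genes that MYC is known to activate were given as a list of 36, all of which passed the filter. At baseline, 33 of 36 had a positive fold change between CREBBP and AAVS pools, with a median of 0.40 against -0.03 over all genes, but 0 of 36 passed edgeR's test. At an unadjusted p under 0.05, 8 were higher and 0 lower, against 2422 of all 18936 genes tested in either direction. CDC25A, a phosphatase that activates cyclin-dependent kinases, had the smallest p (0.95 ± 0.26, adjusted p = 0.227), and NME1, a nucleoside diphosphate kinase, the largest value (1.17 ± 0.33, adjusted p = 0.229). The median difference of the list was 0.19, 0.03, 0.75 and 0.80 in lines 1 to 4, with 22, 19, 32 and 31 of 36 genes higher. Line 2, in which MYC was lower, thus had a median near 0.

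Without line 2, 6 of the 36 genes passed at baseline, all higher in the CREBBP pools, against 2.68% of all genes tested. These were NME1 (1.60 ± 0.28, adjusted p = 0.0190), CDC25A (1.33 ± 0.20), CAD (1.07 ± 0.22), SRM, which makes spermidine, CDK4 and RCC1. The median of the list was then 0.51 and 32 of 36 were positive. As for MYC, line 2 was singled out after the data were seen, so this is not a test.

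With IL4, 34 of 36 were positive, with a median of 0.95 against -0.05 over all genes. NME1, PPAT and NOP16 were higher in CREBBP pools and CCND2, a D-type cyclin, was lower, where 4.39% of all genes passed. NME1 read 71.2, 114.4, 51.6 and 39.5 CPM in the AAVS pools and 204.5, 329.7, 170.8 and 119.3 CPM in the CREBBP pools. Its fold change was 1.87 ± 0.23 (adjusted p = 0.0118). PPAT, the first enzyme of purine synthesis, read 40.9, 83.9, 21.6 and 40.8 CPM and 81.4, 97.2, 96.9 and 107.6 CPM (1.46 ± 0.30, adjusted p = 0.0427). NOP16, a nucleolar protein, differed by 1.06 ± 0.22 (adjusted p = 0.0463). CCND2 fell by 3.24 ± 0.59 (adjusted p = 0.0334), from 49.1, 9.52, 132.0 and 8.84 CPM in AAVS IL4 to 1.34 to 3.75 CPM in CREBBP IL4. The medians of the list were 0.76, 0.54, 1.59 and 1.05 in lines 1 to 4, positive in line 2 as well, where MYC itself was at -0.78. Without line 2, again left out after the data were seen, 17 genes of the list were higher and CCND2 was lower. In that comparison 12.4% of the 20535 genes tested passed. All of these values use the AAVS IL4 libraries, in which CD44, VIM and IGHM differed by -11.4, -7.97 and -15.3 from the CREBBP pools on the log2 scale.

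**Figure D5:**
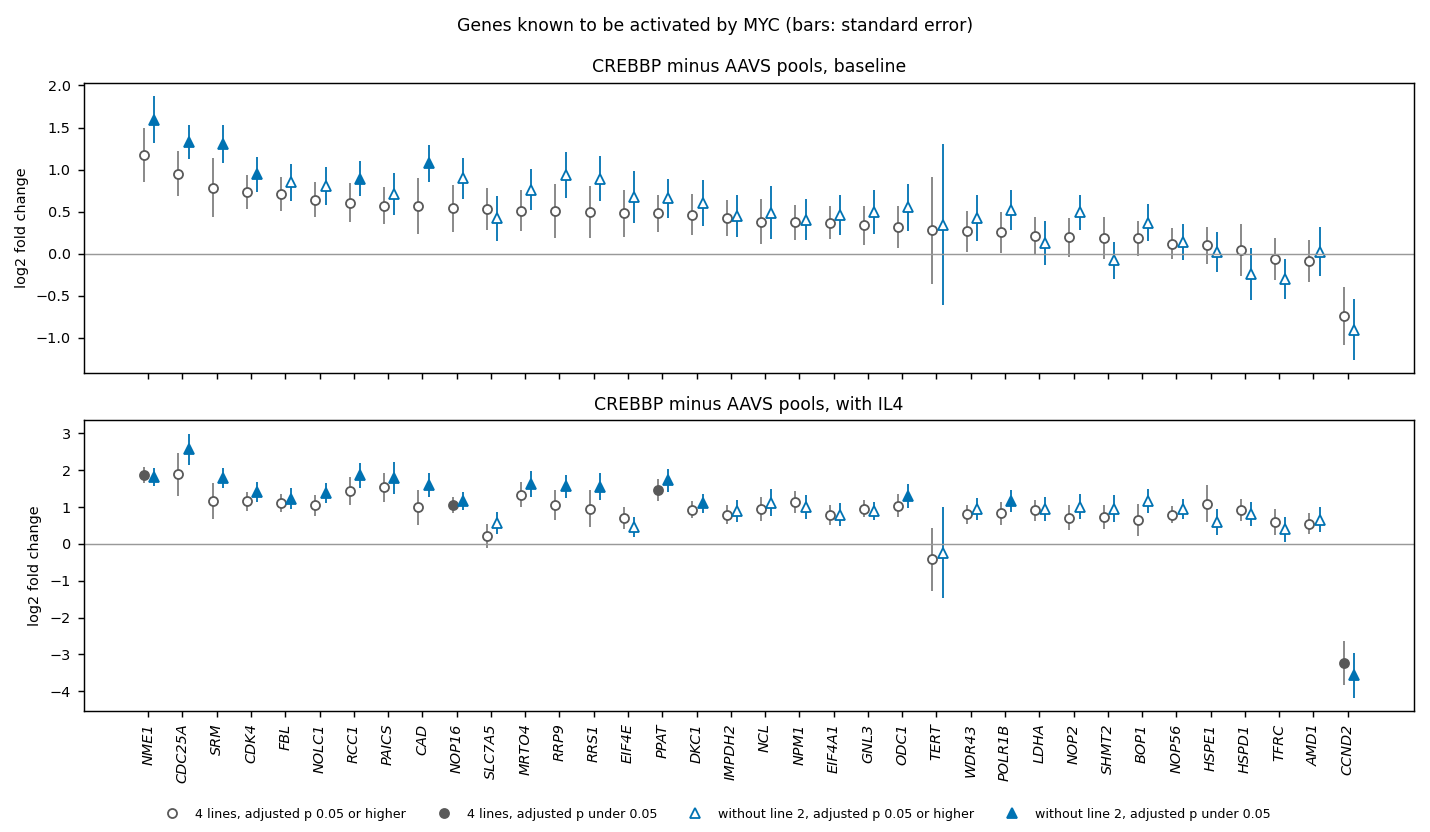
Log2 fold change of CREBBP minus AAVS pools for 36 genes known to be activated by MYC, at baseline (top) and with IL4 (bottom), in the order of the baseline values. Circles are 4 lines, triangles 3 lines without line 2, bars are standard errors and filled symbols have an adjusted p under 0.05. Most symbols lie above 0 in both panels, 0 circles are filled at baseline and 4 with IL4, and CCND2 lies far below 0.

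In response to IL4, the list had a median of -0.39 in AAVS pools, with 32 of 36 negative, and of 0.14 in CREBBP pools, with 25 of 36 positive. By line, the median was -0.47, -0.10, -0.95 and 0.014 in the AAVS pools of lines 1 to 4, so that lines 1 and 3 were lowest and line 4 was near 0, and 0.12, 0.31, -0.17 and 0.078 in the CREBBP pools. In both, 0 of 36 passed. CCND2 had the smallest p in AAVS pools (2.32 ± 0.55, adjusted p = 0.103). At an unadjusted p under 0.05 there were 1 higher and 5 lower in AAVS pools, against 3257 of 20310 genes. In CREBBP pools there were 0 higher and 1 lower, against 502 of 18282 genes. The 1 lower was TERT, the telomerase gene (-0.70 ± 0.26, adjusted p = 0.924). The difference of the responses had a median of 0.57 against 0.05 over all genes, with 33 of 36 positive and 0 passed, and CCND2 again had the smallest p (-2.45 ± 0.69, adjusted p = 0.162). The difference of the responses and the response in AAVS pools both use the AAVS IL4 libraries, and the response in CREBBP pools does not. In the test of the lines, 18 of 36 passed, against 40% of all genes.

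Of 6 genes that MYC is known to repress, 5 passed the filter. NDRG1, a stress-responsive gene, rose with IL4 in AAVS pools from 4.47, 0.0981, 4.80 and 3.11 CPM to 54.5, 5.36, 137.3 and 13.9 CPM (3.83 ± 0.57, adjusted p = 0.0266). In CREBBP pools it stayed between 0.532 and 2.60 CPM in all 8 libraries. NDRG1 was accordingly lower in CREBBP than in AAVS pools with IL4 (-4.54 ± 0.63, adjusted p = 0.0173), and its response differed between pools (-3.86 ± 0.62, adjusted p = 0.0231). CDKN1A, which encodes the cell cycle inhibitor p21, was lower in CREBBP pools with IL4 (-1.62 ± 0.30, adjusted p = 0.0355). At baseline none of the 5 passed, with 1 at an unadjusted p under 0.05, CDKN2B (-1.04 ± 0.39, adjusted p = 0.335), and in the response of CREBBP pools none passed either, with 0 at an unadjusted p under 0.05 (smallest for CDKN1B, -0.41 ± 0.19). The results of NDRG1 and CDKN1A that passed all use the AAVS IL4 libraries. Of all genes tested, 2.4% passed for IL4 in AAVS pools and 4.39% between pools with IL4. For the difference of the responses it was 0.638%. In AAVS IL4, NDRG1 had the same order over the lines as CD44, which read 455.5, 67.5, 940.6 and 158.0 CPM in lines 1 to 4. The part that the transcripts particular to AAVS IL4 have in these results was not tested.

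TXNIP and ARRDC4, the arrestin genes that MLX dimers activate, were lower in the CREBBP pool at baseline in 4 of 4 lines. TXNIP read 66.5, 66.1, 66.2 and 260.8 CPM in AAVS baseline and 58.5, 40.2, 48.5 and 89.6 CPM in CREBBP baseline (-0.62 ± 0.24, unadjusted p = 0.0264, adjusted p = 0.339). ARRDC4 was at -1.06 ± 0.27 (unadjusted p = 0.00240, adjusted p = 0.221), and its counts in line 2 were close to 0. Neither passed in any of the other 4 comparisons of pools and IL4, of which TXNIP in CREBBP against AAVS pools with IL4 came nearest (-0.84 ± 0.34, adjusted p = 0.177). Both passed in the test of the lines, as did 40% of all genes.

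Genes for the proteins that act with the network were tested as 4 lists. None of the 13 SIN3 complex genes, 10 MGA complex genes, 12 coactivators and partners and 13 genes of MYC protein turnover passed between CREBBP and AAVS pools at baseline. The smallest p there belonged to ARID4B (-0.52 ± 0.22, adjusted p = 0.371), TFDP1 (0.62 ± 0.22, adjusted p = 0.320), RUVBL2 (0.58 ± 0.20, adjusted p = 0.310) and PLK1 (0.61 ± 0.25, adjusted p = 0.355). With IL4, CBX3, a heterochromatin protein of the MGA complex, was higher in CREBBP pools, at 159.8, 332.1, 181.0 and 282.6 CPM against 86.1, 169.5, 79.2 and 134.4 CPM (1.31 ± 0.23, adjusted p = 0.0296). RUVBL1, an ATPase that binds MYC, was at 1.15 ± 0.25 with an adjusted p of 0.0501, just outside the threshold. AURKA, a kinase that stabilizes MYC family proteins, was at 1.27 ± 0.29 (adjusted p = 0.0533) and HDAC2, the deacetylase of the SIN3 complex, at 1.01 ± 0.25 (adjusted p = 0.0641). CBX3 was the only gene of the 4 lists to pass, in a comparison where 4.39% of all 19581 genes tested passed. All of these values with IL4 use the AAVS IL4 libraries. In the responses to IL4 and their difference, none of these 4 lists had a gene that passed. The smallest p was that of ARID4B, TFDP1, ZBTB17 and GSK3B in AAVS pools (adjusted p = 0.130, 0.313, 0.269 and 0.258), and of HDAC2, E2F6, ACTL6A and STUB1 in CREBBP pools (each 0.924). For the difference of the responses it was that of ARID4B, CBX3, ACTL6A and GSK3B (adjusted p = 0.188, 0.240, 0.228 and 0.331). Between lines, 5 of 13, 6 of 10, 4 of 12 and 7 of 13 genes of the 4 lists passed, and 3 of 5 repressed genes, against 40% of all genes.

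PVT1, the noncoding neighbour of MYC, read 44.4 to 83.7 CPM in AAVS baseline, 62.7 to 114.1 in AAVS IL4, 47.2 to 113.4 in CREBBP baseline and 49.5 to 69.5 in CREBBP IL4. Its response to IL4 was 0.47 ± 0.17 in AAVS pools (unadjusted p = 0.0267, adjusted p = 0.249) and -0.32 ± 0.17 in CREBBP pools (adjusted p = 0.924). At baseline, PVT1 was at 0.41 ± 0.19 between CREBBP and AAVS pools (adjusted p = 0.393), and higher in 4 of 4 lines, line 2 included.

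CACGTG was present in 9 of the 30 windows found for genes activated by MYC, PPAT among them at 182 bases before its start, and in 1 of 2 for the targets of MLX dimers. The share was 7.37% over all windows of protein-coding genes. Among the other lists, it was in 3 of 9 windows for MYC protein turnover and 2 of 8 for T-cell markers. For naive and memory B-cell markers it was in 0 of 8. The window of NME1 held no CACGTG but a match to the STAT6 palindrome 83 bases before its start. CAD, the gene most like MYC in pattern, had no CACGTG in its window.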

How the data were processed

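The authors mapped the reads to GRCh38 with STAR 2.7.8a and deposited estimated counts per gene from RSEM 1.3.3, as whole numbers and not normalized. Their methods average technical replicates for primary cells, and whether this was done for the lines is not given in the sources used here. The versions come from the submitters' processing notes.

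From these counts, CPM was computed over the total count. Fold changes and p-values came from edgeR 4.0.16 (quasi-likelihood test, filterByExpr, TMM factors, line as a block) in R 4.3.3, with Benjamini-Hochberg adjustment over all genes tested and a threshold of 0.05. The methods name DESeq2, which was run as an alternative (1.42.0, where an adjusted p of NA stayed NA). Differences in single lines are log2 CPM with TMM factors and a prior count of 2. The difference of the IL4 responses and the test of the lines used all 16 libraries. Positions and exon lengths are from GENCODE release 44, and promoter windows from RefSeq.

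The replicate number stands for the cell line, which pairs the libraries. As a check, deviations from the group means correlated within lines 1 to 4 with a median of 0.409, 0.685, 0.227 and 0.596, and a lowest value of -0.0782 in line 3. No libraries of a group were copies, as the lowest chi-square between 2 of them was 98.7 per degree of freedom.

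The members and lists were chosen with earlier results of these data known. Genes outside the members were named by rule, as up to 3 of each list with the highest and 3 with the lowest fold change among those that passed, or else the gene with the smallest p. NME1 and TXNIP at baseline, MYCL, CDKN1A and the values without line 2 were named after the data were seen. The fits were tested on simulated data.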

Additional observations from a re-analysis of the deposited data

Results flagged for a closer look

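MXD3, a MAX-binding repressor, was far higher in line 4 (DOHH2) than in the other lines in AAVS IL4, at 24.2 CPM against 10.8 CPM in the next line. This was the only 1 of 40 sets of 4 libraries (10 members in 4 groups) in which the gap to the nearest library took up more of the range than Dixon's critical value for 4 samples allows. Chance gives about 1 in 20 such sets. In the other groups, line 4 read 27.1, 22.0 and 18.7 CPM for MXD3. No member passed the test for a difference in IL4 response between CREBBP and AAVS pools.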

How the results depend on the processing

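Of the 50 log2 fold changes of members, 29 kept their sign under every alternative run, among them MYC in the 4 comparisons of pools and of IL4, and 21 changed it. The cause was not tested. No member passed in these comparisons under any alternative except MYC at baseline without line 2. Without a filter on low counts, the median of all genes moved to -0.19 (baseline) and -0.35 (IL4) between pools.

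Genes that passed for IL4 in AAVS pools numbered 2062 with DESeq2, 1851 without the filter, 1270 with all 16 libraries in 1 fit, and 64 to 1035 with a line left out (64 without line 1, 1035 without line 2, 267 without line 4). For IL4 in CREBBP pools they numbered 1 (DESeq2) and 40 (no filter). Between pools at baseline they numbered 511 (DESeq2), 586 (no filter) and 0 to 515 with a line left out (515 without line 2), and members 0 to 1. With IL4 they numbered 4154 (DESeq2), 3466 (no filter), 540 (no replicate block), 4393 (16 libraries) and 25 to 2547 with a line left out (104, 2547, 25 and 315 without lines 1 to 4). For the difference of the responses they numbered 1099 (DESeq2), 1191 (no filter), 2 (no replicate block) and 16 to 264 with a line left out (16 without line 1, 264 without line 2, 18 without line 3). Between lines, 5 members passed with DESeq2 and 1 to 4 with a line left out (1 without line 4, 4 without line 3), 3 passed without the AAVS IL4 group (MAX, MXD4 and MLXIP), and 4009 to 9953 genes.

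Signs changed for MGA with IL4 in AAVS pools (-0.053 without the filter, -0.028 with 16 libraries) and in CREBBP pools (0.028 with 16 libraries), and for MLXIP at baseline without the replicate block (0.0065). In the difference of the responses they changed for MYC (-0.033 with DESeq2 and with median-of-ratios factors) and MGA (0.0018 without the filter), and without the block for MXI1 (0.14), MNT (0.072), MGA (0.034) and MLXIP (0.044). Leaving out the block changed no call of a member, but members at an unadjusted p under 0.05 for IL4 in CREBBP pools went from 2 to 0. With a line left out, ranges were -0.10 to 0.19 (MGA) and -0.67 to 0.074 (MXI1) for IL4 in AAVS pools. For IL4 in CREBBP pools they were -0.20 to 0.047 (MGA), -0.38 to 0.0033 (MXD1), -0.45 to 0.011 (MNT) and -0.036 to 0.045 (MLX). Between pools at baseline they were -0.11 to 0.047 (MLXIP), -0.081 to 0.41 (MXD3), -0.21 to 0.029 (MGA) and -0.050 to 0.25 (MNT). With IL4 they were -0.083 to 0.16 (MAX), -0.14 to 0.26 (MNT), -0.30 to 0.042 (MGA), -0.32 to 0.26 (MLXIP) and -0.11 to 0.49 (MXD4). For the difference of the responses they were -0.084 to 0.14 (MYC), -0.15 to 0.027 (MGA), -0.48 to 0.37 (MXI1), -0.30 to 0.25 (MNT), -0.32 to 0.18 (MLXIP) and -0.031 to 0.68 (MXD4).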
